A study of Camelina sativa with 12 samples.

Results

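Class III peroxidases are secreted, haem-containing enzymes of plants that use hydrogen peroxide to oxidise phenolic compounds. In the root wall they can cross-link lignin monomers and structural proteins, which stiffens the wall, and in another reaction cycle they can themselves release reactive oxygen species. In *Arabidopsis thaliana*, PRX33 and PRX34 are known as wall peroxidases of the oxidative burst and of root elongation.

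Of 49932 genes in the matrix of *Camelina sativa* root expression, 6 genes of this family are described here. They were chosen because the study lists them as differentially expressed on these same libraries. Csa06g041180, Csa06g041190, Csa06g023070 and Csa17g083270 were listed in the *35S::acdS* line against the control, and Csa04g034500 and Csa03g055440 in the *rolD::acdS* line against the control. For these genes, that comparison is therefore given as a description, with no test. Comparisons that share a group with it reuse libraries that chose the gene, so their p-values are not independent of the choice. The study annotates Csa06g041180 and Csa06g041190 as peroxidase C3, with the *A. thaliana* orthologs AT2G38380 (PRX22) and AT2G38390 (PRX23). Csa06g023070 is annotated as peroxidase CB with the ortholog AT3G49120 (PRX34), and Csa04g034500 also as peroxidase CB, but with the ortholog AT3G49110 (PRX33). Csa17g083270 and Csa03g055440 are copies of AT1G49570 (PRX10) on chromosomes 17 and 3. The names of the orthologs are used for the camelina genes below. The roles of PRX22, PRX23 and PRX10 in salt-treated roots are not described in the sources used here. Because copies of the family are alike in sequence, the reads of close copies such as PRX22 and PRX23 could have been divided between them in counting, and their separate levels are uncertain to that extent.

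Roots came from 28-day-old plants of cv. DH55, and each of the 4 groups had 3 biological replicates. The control was DH55 in soil that received MgSO4 solution, and the second group was DH55 in soil inoculated with the endophyte *P. migulae* 8R6, which makes ACC deaminase, the enzyme that degrades the ethylene precursor. The other groups were transgenic DH55 lines carrying *acdS*, the gene for this enzyme, from *Pseudomonas* sp. UW4. The gene was either under the broadly active CaMV *35S* promoter or under the root promoter *rolD* of *Agrobacterium rhizogenes*. By the methods, soil received either bacteria or MgSO4 solution, and what the soil of the transgenic lines received is not stated separately. The lines were homozygous with a single insert, and how many independent lines of each construct entered the libraries is not given in the sources used here. All groups, the control included, were watered with 192 mM NaCl (15 dS/m) for 21 days, so no comparison is with roots free of salt. No group combined the bacterium with the transgene.

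Expression is given as CPM, read counts scaled to a common library size, and the deposited values are whole numbers. The libraries summed to between 887898 and 947036 CPM, their read depth is unknown, and 48099 genes with at least 1 CPM in at least 3 libraries were tested, all 6 peroxidase genes among them. For 7 of the 12 libraries, the library most similar over all tested genes belonged to another group. In RNA from whole roots, fewer cells of a type and less RNA per cell cannot be told apart. Root identity and the expression of *acdS* were not analysed here. Fold changes are differences of mean log2(CPM + 0.5) with the standard error (SE) of one limma fit over all libraries. A call needed both a Benjamini-Hochberg adjusted p no higher than 0.05 and a log2 fold change beyond 0.8 in either direction. None of the 6 peroxidase genes was called in any of the 6 comparisons between groups.

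The gene pair annotated as peroxidase CB had its highest levels in the transgenic lines. For PRX34 (Csa06g023070), the control libraries had 46, 32 and 46 CPM, those with *P. migulae* 8R6 had 40, 45 and 35 CPM, those of *35S::acdS* had 123, 59 and 83 CPM, and those of *rolD::acdS* had 72, 55 and 65 CPM. Every library of both lines exceeded every library of the control and of the bacterial treatment, while the lines overlapped each other. The means were 88.3 ± 32.3 CPM in *35S::acdS*, 64 ± 8.54 CPM in *rolD::acdS*, 41.3 ± 8.08 CPM in the control and 40 ± 5 CPM with *P. migulae* 8R6 (SD, n = 3). In the comparison that chose this gene, *35S::acdS* against the control, the ratio of means was 2.14 and the log2 fold change 1.04 (SE 0.24). In *rolD::acdS* roots the log2 fold change against the control was 0.64 (SE 0.24, unadjusted p = 0.0244, adjusted p = 0.713 from limma). *P. migulae* 8R6-treated roots lay below *35S::acdS* roots (log2 fold change -1.08, limma adjusted p = 0.192) and below *rolD::acdS* roots (log2 fold change -0.67, limma adjusted p = 0.286). Replicate 1 of *35S::acdS* had the highest value of all libraries, and without it the log2 fold change against the control was 0.77.

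PRX33 (Csa04g034500) was highest in *rolD::acdS* roots and lowest in roots treated with the bacterium. Its libraries stood at 72, 67 and 54 CPM in the control, at 33, 55 and 52 CPM with *P. migulae* 8R6, at 106, 63 and 79 CPM in *35S::acdS*, and at 106, 93 and 129 CPM in *rolD::acdS*. The *rolD::acdS* libraries lay above all libraries of the control and of the bacterial treatment, and the *35S::acdS* libraries above those of the bacterial treatment only. Means were 109.3 ± 18.2 CPM in *rolD::acdS*, 82.7 ± 21.7 CPM in *35S::acdS*, 64.3 ± 9.29 CPM in the control and 46.7 ± 11.9 CPM with *P. migulae* 8R6 (SD, n = 3), and in this order each group overlapped the next. The comparison that chose the gene, *rolD::acdS* against the control, gave a log2 fold change of 0.76 (SE 0.23). The widest difference for this gene set *P. migulae* 8R6 against *rolD::acdS*, with a log2 fold change of -1.24 (SE 0.23, unadjusted p = 0.000277, adjusted p = 0.110 from limma). It ranged from -1.38 to -1.01 when single libraries of the 2 groups were left out. The comparison shares its *rolD::acdS* libraries with the one that chose the gene. Against the control, the log2 fold change was 0.34 in *35S::acdS* (adjusted p = 0.791 from limma) and -0.48 with *P. migulae* 8R6 (adjusted p = 0.874 from limma). The bacterial group differed from *35S::acdS* by -0.82 on the log2 scale (limma adjusted p = 0.249).

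The peroxidase C3 genes, whose identifiers are consecutive on chromosome 6, had lower mean levels in both transgenic lines than in the groups without the transgene. PRX22 (Csa06g041180) stood at 71, 109 and 100 CPM in the control libraries, at 108, 62 and 79 CPM with *P. migulae* 8R6, at 46, 50 and 61 CPM in *35S::acdS*, and at 80, 51 and 42 CPM in *rolD::acdS*. All *35S::acdS* libraries were below those of the control and of the bacterial treatment, and the *rolD::acdS* libraries overlapped both. Mean levels were 93.3 ± 19.9 CPM for the control, 83 ± 23.3 CPM with *P. migulae* 8R6, 57.7 ± 19.9 CPM for *rolD::acdS* and 52.3 ± 7.77 CPM for *35S::acdS* (SD, n = 3). The log2 fold change in *35S::acdS* against the control, which chose the gene, was -0.82 (SE 0.27). That in *rolD::acdS* was -0.72 (SE 0.27, unadjusted p = 0.0211, adjusted p = 0.713 from limma), and that with *P. migulae* 8R6 -0.18 (adjusted p = 0.921 from limma). Roots with the bacterium were above *35S::acdS* roots by 0.63 (limma adjusted p = 0.381) and above *rolD::acdS* roots by 0.54 (limma adjusted p = 0.420) on the log2 scale.

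PRX23 (Csa06g041190) had the same order of groups with a smaller spread between replicates. Its libraries stood at 41, 50 and 47 CPM in the control, at 50, 41 and 43 CPM with *P. migulae* 8R6, at 21, 28 and 30 CPM in *35S::acdS*, and at 37, 34 and 25 CPM in *rolD::acdS*. All libraries of both lines lay below every library of the control and of the bacterial treatment, and the lines overlapped each other. Means were 46 ± 4.58 CPM in the control, 44.7 ± 4.73 CPM with *P. migulae* 8R6, 32 ± 6.25 CPM in *rolD::acdS* and 26.3 ± 4.73 CPM in *35S::acdS* (SD, n = 3). The comparison that chose the gene, *35S::acdS* against the control, gave a log2 fold change of -0.80 (SE 0.17). *P. migulae* 8R6-treated roots exceeded *35S::acdS* roots by 0.76 (SE 0.17, unadjusted p = 0.00101, adjusted p = 0.190 from limma) and *rolD::acdS* roots by 0.49 (adjusted p = 0.269 from limma) on the log2 scale. The comparison with *35S::acdS* shares its *35S::acdS* libraries with the one that chose the gene. In *rolD::acdS* against the control the log2 fold change was -0.53 (adjusted p = 0.694 from limma).

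**Figure D1:**
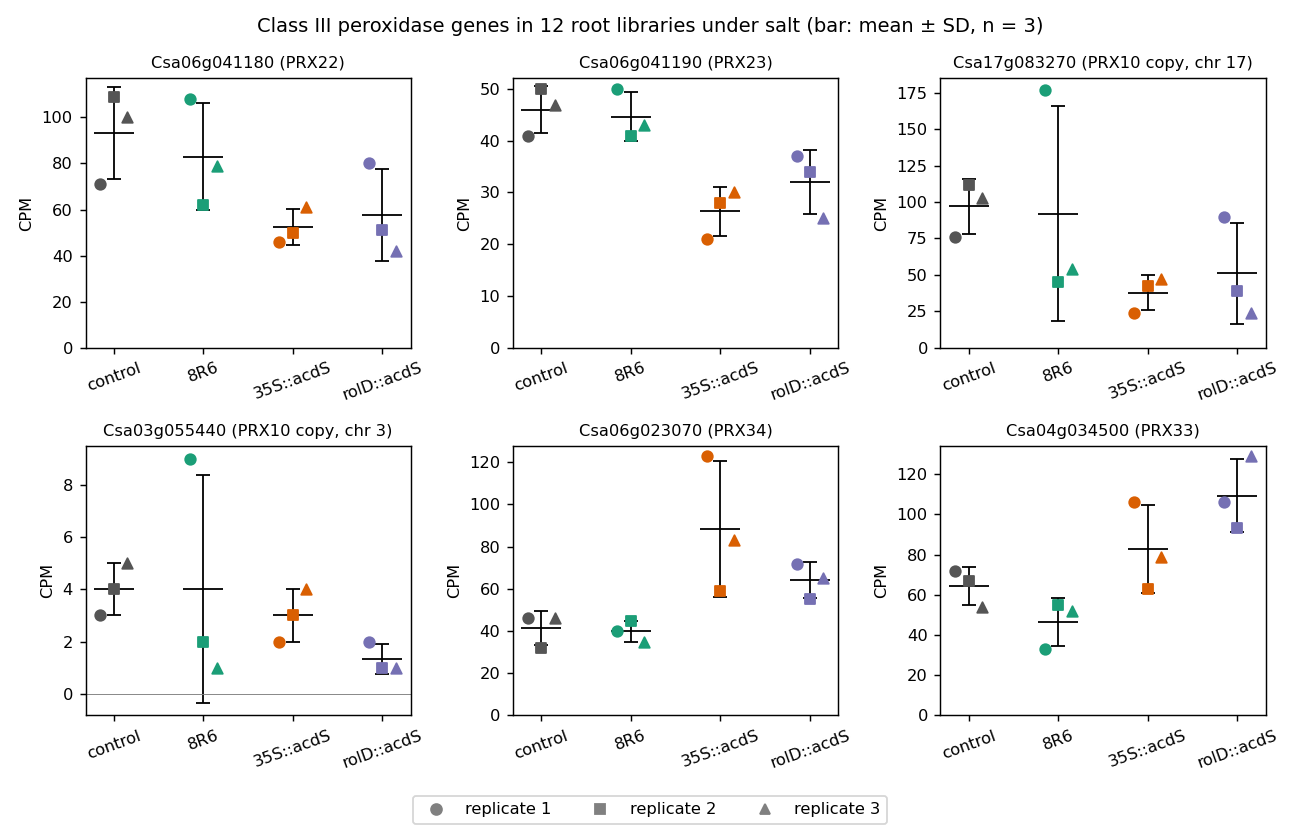
CPM of each of the 6 peroxidase genes in every library, by group, with the replicate number as the symbol and the mean ± SD (n = 3) as bars. PRX34 lies at 55 to 123 CPM in the libraries of both transgenic lines and at 32 to 46 CPM in the others, whereas *P. migulae* 8R6 replicate 1 holds the highest value of both PRX10 copies, 177 and 9 CPM.

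In the *P. migulae* 8R6-treated group, the PRX10 copies had wider ratios of the highest to the lowest library than the other peroxidase genes. On chromosome 17, Csa17g083270 stood at 76, 112 and 103 CPM in the control libraries, at 177, 45 and 54 CPM with *P. migulae* 8R6, at 24, 42 and 47 CPM in *35S::acdS*, and at 90, 39 and 24 CPM in *rolD::acdS*. Only the *35S::acdS* libraries were all below the control. The first replicate was 3.93 times the lowest in the *P. migulae* 8R6-treated group and 3.75 times the lowest in *rolD::acdS*, and both groups overlapped the control. The comparison that chose the gene, *35S::acdS* against the control, gave means of 37.7 ± 12.1 and 97 ± 18.7 CPM (SD, n = 3) and a log2 fold change of -1.39 (SE 0.55). In *rolD::acdS* against the control it was -1.12 (SE 0.55, adjusted p = 0.731 from limma), and it came to -1.63 without *rolD::acdS* replicate 1. With *P. migulae* 8R6 it was -0.34 (adjusted p = 0.928 from limma), and -0.95 without replicate 1 of that group. The bacterial group differed from *35S::acdS* by 1.05 (limma adjusted p = 0.469) and from *rolD::acdS* by 0.78 (limma adjusted p = 0.577) on the log2 scale, and without its replicate 1 by 0.44 and 0.17.

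Csa03g055440, the PRX10 copy on chromosome 3, was within a few CPM of 0 in all libraries. It stood at 3, 4 and 5 CPM in the control, at 9, 2 and 1 CPM with *P. migulae* 8R6, at 2, 3 and 4 CPM in *35S::acdS*, and at 2, 1 and 1 CPM in *rolD::acdS*. The *rolD::acdS* libraries, which chose the gene against the control, were below all control libraries (log2 fold change -1.31, SE 0.56), and no other groups were separated. Control and *P. migulae* 8R6-treated roots had equal means of 4 CPM, while the log2 fold change between them was -0.43 (limma adjusted p = 0.916), and 0.14 at its highest when single libraries were left out. Against *rolD::acdS*, *35S::acdS* roots differed by 0.94 on the log2 scale (limma adjusted p = 0.728). Against *rolD::acdS*, the bacterial group differed by 0.89 (limma adjusted p = 0.524), by 0.12 without its replicate 1 and by 1.45 without its replicate 3. At this level a step of 1 CPM is a large part of the value.

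Between the transgenic lines themselves, the libraries of 0 of the 6 genes were separated, while 7.08% of all tested genes had libraries that did not overlap in this comparison (3.58% higher and 3.51% lower in *35S::acdS*). The log2 fold changes of *35S::acdS* minus *rolD::acdS* ran from -0.42 for PRX33 to 0.94 for Csa03g055440 (adjusted p from 0.706 to 0.960 by limma, with 0 of 6 at an unadjusted p under 0.05 against 7.53% of tested genes). The 95% interval of the difference reached from -0.68 to 0.49 for PRX22, from -0.13 to 0.94 for PRX34 and from -1.50 to 0.95 for Csa17g083270. The test therefore does not show that the lines were alike. In this comparison 0.00416% of tested genes were called.

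Between roots treated with *P. migulae* 8R6 and the control, the libraries of 0 of 6 genes were separated, beside 4.16% of tested genes (1.95% higher and 2.21% lower in treated roots), and 0 of 6 had an unadjusted p under 0.05 by limma (5.41%). All 6 log2 fold changes were below 0, with a median of -0.26 beside 0 over all tested genes, and their adjusted p lay between 0.874 and 1. The share of all tested genes below 0 was not computed. Those of PRX23 and PRX34 were -0.04 and -0.03. The fold changes of PRX22, PRX23, PRX34 and the PRX10 copies were above 0 at their highest when single libraries were left out, so a lowering of the family is not shown. None of the 48099 tested genes was called by limma (0%).

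Against the transgenic lines, the same bacterial libraries were separated for more of the genes. Set against *35S::acdS*, they did not overlap for 4 of 6 genes, with PRX22 and PRX23 higher and PRX33 and PRX34 lower in the treated roots, beside 9.77% of tested genes (5.05% higher and 4.71% lower). Set against *rolD::acdS*, this held for 3 of 6, with PRX23 higher and PRX33 and PRX34 lower in the treated roots, beside 10.7% of tested genes (5.56% higher and 5.1% lower). At an unadjusted p under 0.05 by limma, 4 of 6 genes passed in the first comparison (12.1% of tested genes) and 3 of 6 in the second (13%). The smallest adjusted p were 0.190 and 0.110 by limma, and 0% and 0.00832% of tested genes were called. Both comparisons use libraries of a line in which some of the genes were chosen, so their counts are not independent of the choice. In the comparisons that chose genes, the libraries of 4 of 6 were separated in *35S::acdS* against the control (7.88% of tested genes, 3.46% higher and 4.42% lower) and of 4 of 6 in *rolD::acdS* against the control (6.76%, of which 2.99% higher and 3.77% lower). Of the 4 genes that the *rolD::acdS* comparison did not choose, PRX34 was higher and PRX23 lower without overlap, and 3 had an unadjusted p under 0.05 (6.86% of tested genes; 0.00416% were called). The 2 genes not chosen in *35S::acdS*, PRX33 and Csa03g055440, overlapped the control (0 of 2 at an unadjusted p under 0.05, 7.12% of tested genes; 0% were called). All 3 comparisons with the control use the same control libraries.

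**Figure D2:**
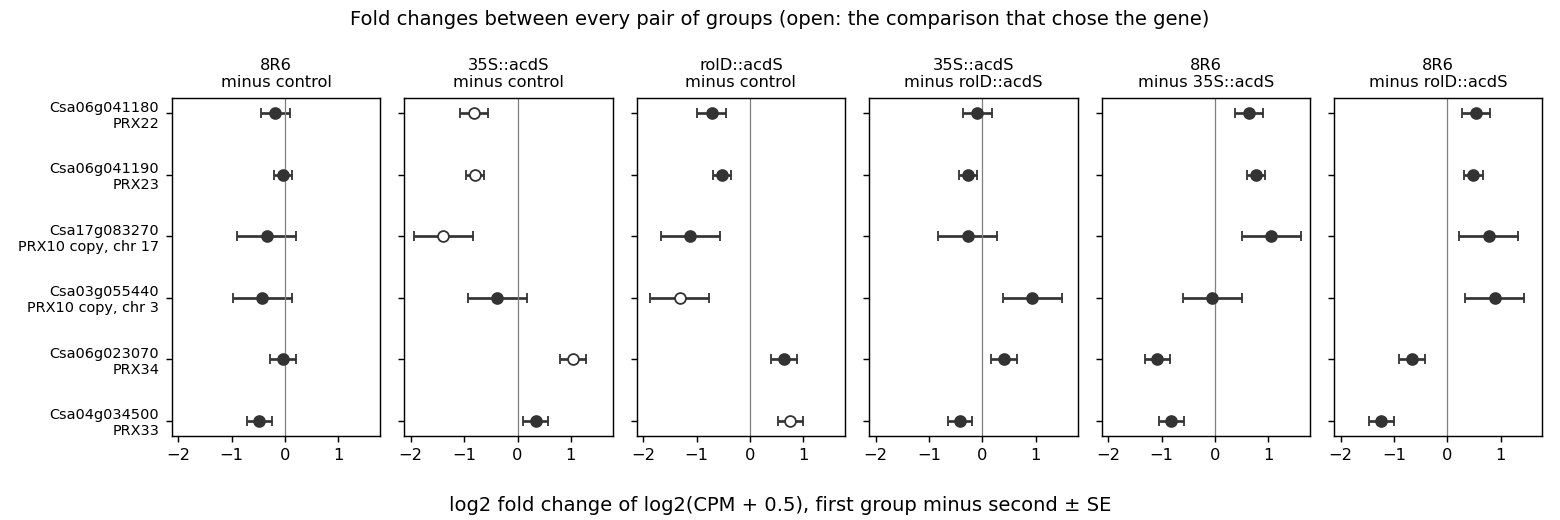
Log2 fold change (first group minus second) ± SE of the 6 peroxidase genes in each comparison between groups, with open symbols where the comparison chose the gene. Points of *P. migulae* 8R6 minus control lie between -0.48 and -0.03, and those of *P. migulae* 8R6 minus *rolD::acdS* between -1.24 for PRX33 and 0.89 for Csa03g055440.

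A share within a gene pair compares copies inside one library and does not depend on the scale of that library. Gene lengths were not used, so the size of a share and of a difference between shares depends on them, but not the direction of the difference between 2 libraries. PRX22 held 63.4 to 68.6% of the summed CPM of the peroxidase C3 pair in the control libraries, 60.2 to 68.4% with *P. migulae* 8R6, 64.1 to 68.7% in *35S::acdS* and 60 to 68.4% in *rolD::acdS*. These ranges overlapped throughout. In the 5 comparisons that chose neither copy, the means differed by -2.97 to 2.91 percentage points (exact permutation test, two-sided, p from 0.3 to 0.8). With 3 libraries a group, p = 0.1 is the smallest value the exact test allows.

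For the peroxidase CB pair, the ranges of the share were separate in the transgenic lines. PRX34 held 48.4 to 53.7% of the pair in the *35S::acdS* libraries and 33.5 to 40.4% in the *rolD::acdS* libraries, which did not overlap. The difference of the means was 14.1 percentage points, and its exact permutation p was 0.1, the smallest possible (adjusted p = 0.36 over the 18 share comparisons). Control libraries ranged from 32.3 to 46%, below all *35S::acdS* libraries and overlapping *rolD::acdS*, and the comparison of *35S::acdS* with the control, which chose PRX34, is given with no test. *P. migulae* 8R6-treated libraries ranged from 40.2 to 54.8% and overlapped every other group. PRX34 was chosen in the first line and PRX33 in the second, so the difference is not independent of the choice.

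For PRX10, the copy on chromosome 17 supplied nearly all of the pair in every library. Its share was 92.2 to 93.3% in *35S::acdS*, 95.4 to 96.6% in the control, 95.2 to 98.2% with *P. migulae* 8R6 and 96 to 97.8% in *rolD::acdS*. The *35S::acdS* libraries lay below those of the other groups in every case. The difference from *rolD::acdS* was -4.51 percentage points and that of *P. migulae* 8R6 from *35S::acdS* 3.76 percentage points (exact permutation p = 0.1 for each, adjusted p = 0.36 over the 18 share comparisons), and the comparison with the control, which chose this copy, is given with no test. Csa17g083270 was chosen in *35S::acdS* and Csa03g055440 in *rolD::acdS*, so the differences that involve *35S::acdS* are not independent of the choice. Since the CPM values are whole numbers, each could be off by up to 0.5 CPM if it was rounded. With that margin the *35S::acdS* libraries could reach 94.4% and the *rolD::acdS* libraries 94%, so these groups would no longer be separated, while the control libraries would stay at or above 94.9%.

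**Figure D3:**
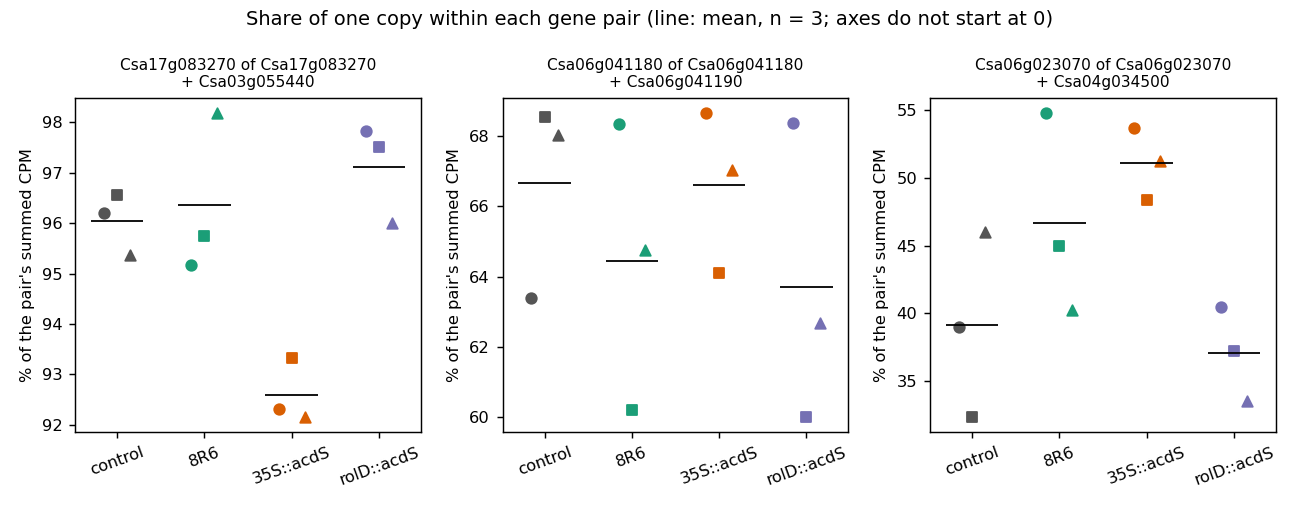
Share of one copy in the summed CPM of its gene pair, in % per library with the mean of each group as a line. The share of the PRX10 copy on chromosome 17 is lowest in *35S::acdS* at 92.2 to 93.3%, and the shares of PRX22 overlap between all groups.

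The study chose these genes by a test of differences between groups, which can also depend on the scatter of replicates. How genes deviate together around their group means was not part of that choice. The deviations are still not wholly independent of it, as they include the libraries that chose the genes. Within groups, the libraries deviated together in 4 of the 6 pairs among PRX22, PRX23 and the PRX10 copies, as far as the adjusted test of Pearson's r shows. Between PRX33 and each of these genes, r was below 0. Over the 12 libraries, deviations of log2(CPM + 0.5) from the group mean had a Pearson's r of 0.92 for PRX22 with Csa17g083270 (Spearman's rho 0.92, adjusted p = 0.00579 and 0.0116). The p-values are from an exact permutation test within groups, two-sided, adjusted over the 15 gene pairs, and its smallest unadjusted p is 0.000772. Reads of close copies could have been divided between them in counting. The part of this in the r of PRX22 with PRX23 and of the PRX10 copies was not tested. For PRX23 with Csa17g083270, r was 0.84 (rho 0.92, exact permutation test, adjusted p = 0.00579 and 0.0116), for PRX22 with PRX23 it was 0.83 (rho 0.89, adjusted p = 0.0270 and 0.0193), and for the PRX10 copies it was 0.85 (rho 0.86, adjusted p = 0.0463 and 0.0370). Without the 2 libraries farthest from the median of the first gene named, r was 0.85, 0.83, 0.78 and 0.70. For 3 of these pairs the libraries left out were the first replicates of the *P. migulae* 8R6-treated group and of *rolD::acdS*. In both of those, PRX22, PRX23 and the PRX10 copies were at their group's highest value. Over all tested genes, the deviations of the same 2 libraries had a Pearson's r of 0.34, and the part of this in the peroxidase result was not tested. The permutation test took libraries of different groups as independent. How many pairs of other genes pass it was not computed, so the 4 pairs are not shown to be particular to this family. PRX23 with Csa03g055440 passed by Spearman's rho only (rho 0.77, exact permutation adjusted p = 0.0289), with an r of 0.59 (adjusted p = 0.0556).

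The genes can be split into PRX22, PRX23 and the PRX10 copies on one side and the peroxidase CB pair on the other. This split follows the direction of the comparisons that chose the genes. Among the 7 pairs within these sets, all r were positive (0.50 to 0.92), with 4 passing the adjusted test of r. All 8 pairs that cross between the sets had r below 0 (-0.74 to -0.00). Of them, 0 passed the adjusted test and 2 had an unadjusted exact permutation p of at most 0.05. The lowest were those of PRX33 with PRX23 (r = -0.74, rho -0.67, exact permutation adjusted p = 0.0598 and 0.0694) and with Csa17g083270 (r = -0.74, rho -0.78, exact permutation adjusted p = 0.0709 and 0.0628). PRX33 and PRX34 themselves had r = 0.50 (rho 0.50, exact permutation adjusted p = 0.276 and 0.253), which was 0.05 without *35S::acdS* replicates 1 and 2. Without the same libraries, r of PRX34 went from -0.19 to 0.03 with Csa17g083270 and from -0.00 to 0.22 with Csa03g055440. The other crossing pairs stayed below 0 without the 2 libraries farthest from the median of 1 of their genes. The pairs share genes and libraries and are not independent of each other.

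**Figure D4:**
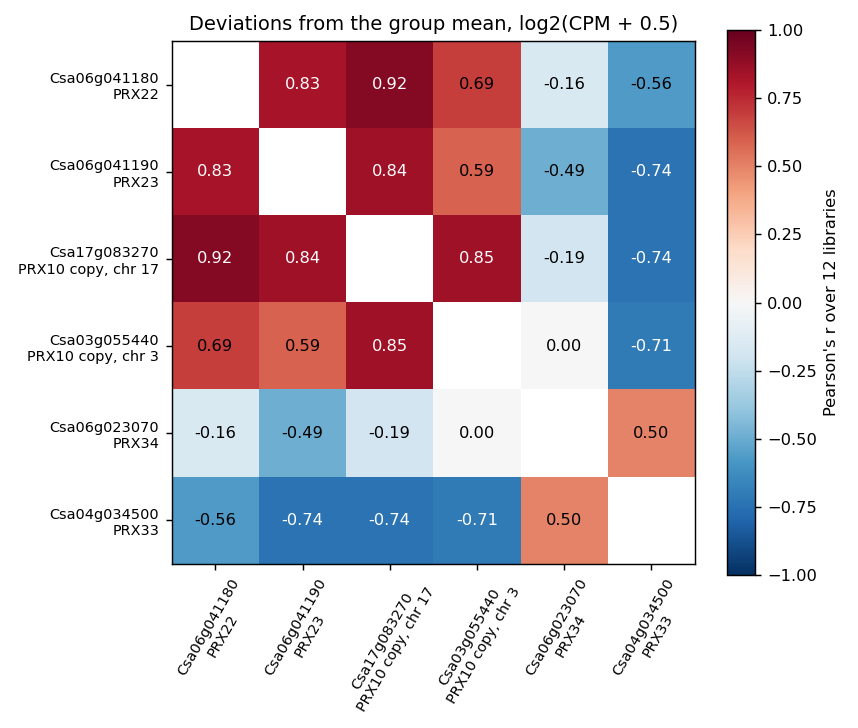
Pearson's r between the deviations of gene pairs from their group means, log2(CPM + 0.5), over 12 libraries, with red for positive and blue for negative values. PRX22, PRX23 and the PRX10 copies form a block at 0.59 to 0.92, and PRX33 has -0.74 to -0.56 with each of them.

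The genes whose pattern over the 12 libraries was most like that of each peroxidase gene were looked up among 32862 genes with a mean of at least 5 CPM, by Pearson's r of log2(CPM + 0.5). These r contain the group differences that chose the genes and are descriptions. PRX22 and Csa17g083270 had the same gene at the top, Csa09g028450, with r of 0.97 and 0.98. Its means were 142 CPM in the control, 134.7 CPM with *P. migulae* 8R6, 83.7 CPM for *35S::acdS* and 96.7 CPM for *rolD::acdS*. Csa17g083270 itself ranked 3 for PRX22 (r = 0.95), and PRX22 ranked 4 for Csa17g083270. PRX23 ranked 14 for PRX22. Next for PRX22 was Csa05g015090 (r = 0.96), and next for Csa17g083270 were Csa14g055770 and Csa16g040630 (r = 0.97 each).

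For PRX23 the most similar genes were Csa00626s010, annotated by the study as ubiquitin-conjugating enzyme 29 (r = 0.96), Csa10g042300, annotated as homeobox 1 (r = 0.95), and Csa11g025130 (r = 0.95). For PRX34 they were Csa17g030940, Csa07g040210 and Csa09g061430 (r = 0.92, 0.92 and 0.91), of which the last is a UDP-glucosyl transferase 73C7 gene. For PRX33 they were Csa17g007220, Csa12g036710 and Csa04g030180 (r = 0.95, 0.93 and 0.91). The last of these encodes a glutamine-dependent asparagine synthase, and averaged 11 CPM in *rolD::acdS* and 2.33 CPM with *P. migulae* 8R6. For Csa03g055440, the low PRX10 copy, they were Csa06g041500, Csa06g047020 and Csa14g042690 (r = 0.92, 0.91 and 0.91). PRX33 ranked 738 for PRX34 (r = 0.67), although both carry the same annotation.

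Genes numbered next to the peroxidase genes were compared in the same way. Within 3 steps of 10 in the gene number, 19 other genes had rows, and all were tested. In *35S::acdS* against the control their log2 fold changes lay between -0.57 and 0.34, in *rolD::acdS* between -0.27 and 0.25, and with *P. migulae* 8R6 between -0.60 and 0.66. In each of the 6 comparisons 0 of 19 exceeded an absolute log2 fold change of 0.8, which 1.75 to 4.40% of all tested genes did. Their median absolute log2 fold change in *35S::acdS* against the control was 0.15, as it was over all tested genes. It was 0.81 for the 6 peroxidase genes, 4 of which this comparison chose, so that nothing can be read from the gap. The neighbour of PRX23, Csa06g041200, had a log2 fold change of 0.11 in *35S::acdS* and the neighbour of PRX34, Csa06g023060, one of 0.34, beside -0.80 for PRX23 and 1.04 for PRX34. The same comparison chose PRX23 and PRX34, so nothing can be read from these gaps either. A gene near PRX33, Csa04g034470, was at -0.57, beside 0.34 for PRX33. Libraries did not overlap for 4 of the 19 between *35S::acdS* and the control (7.88% of tested genes), for 3 between *P. migulae* 8R6 and *35S::acdS* (9.77%), for 5 between *P. migulae* 8R6 and *rolD::acdS* (10.7%), and for 0 in the other comparisons.

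**Figure D5:**
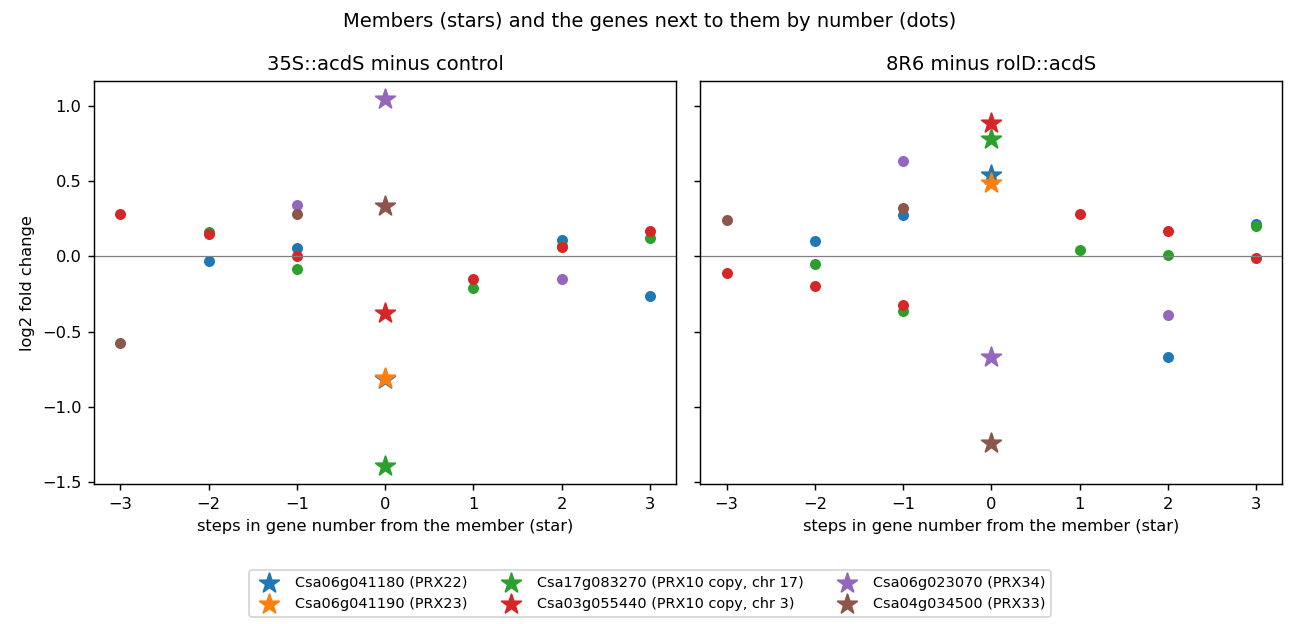
Log2 fold change of the peroxidase genes (stars) and of the genes up to 3 steps of 10 away in gene number (dots, same colour) for *35S::acdS* minus control and *P. migulae* 8R6 minus *rolD::acdS*. In the first comparison, which chose 4 of the 6 peroxidase genes, the stars reach from -1.39 to 1.04 and the dots from -0.57 to 0.34.

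A further class III peroxidase of the study's lists, peroxidase 20, has a gene pair, and both of its genes were chosen in *35S::acdS* against the control. Csa05g018890 stood at 11, 10 and 11 CPM in the control, at 11, 6 and 7 CPM with *P. migulae* 8R6, at 5, 5 and 6 CPM in *35S::acdS*, and at 10, 6 and 6 CPM in *rolD::acdS*. Only the *35S::acdS* libraries did not overlap the control. For Csa04g047700 every control library had 7 CPM, and the *35S::acdS* libraries had 3, 4 and 3 CPM. Those with *P. migulae* 8R6 had 8, 4 and 5 CPM, and those of *rolD::acdS* had 6, 4 and 2 CPM. The *rolD::acdS* libraries of this gene were thus also all below the control, beside 3.77% of tested genes. In *rolD::acdS* against the control, which did not choose them, the log2 fold changes were -0.55 for Csa05g018890 and -0.84 for Csa04g047700 (adjusted p = 0.713 for each from limma).

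Of 6 other redox genes on the study's lists, 0 were called in any of the 6 comparisons, and these were also chosen on these libraries. In the comparisons that had not chosen them, 0 of 3 had an unadjusted p under 0.05 by limma with *P. migulae* 8R6 (5.41% of tested genes), 0 of 4 in *35S::acdS* (7.12%) and 1 of 5 in *rolD::acdS* (6.86%), each against the control. It was 3 of 6 between the lines (7.53%), 3 of 6 for *P. migulae* 8R6 against *35S::acdS* (12.1%) and 4 of 6 against *rolD::acdS* (13%). Ascorbate peroxidase 5 (Csa10g006090), which reduces hydrogen peroxide with ascorbate, stood at 16, 14 and 14 CPM in the control and at 8, 9 and 7 CPM in *35S::acdS*. Between the lines, a comparison that did not choose it, the log2 fold change of *35S::acdS* minus *rolD::acdS* was -0.56 (unadjusted p = 0.000926, adjusted p = 0.414 from limma). The alpha-dioxygenase 1 genes Csa15g001040 and Csa01g001030, which form oxylipins, were at 2 to 5 CPM and 1 to 4 CPM with *P. migulae* 8R6, and at 0 to 1 CPM and 0 CPM in the control. Thioredoxin H-type 7 (Csa16g017640) stood at 2, 5 and 6 CPM in *35S::acdS* and at 8, 14 and 13 CPM in the control. For the glutathione transferase gene Csa03g013800, the *rolD::acdS* libraries had 15, 8 and 7 CPM and the control libraries 5, 2 and 3 CPM. Csa11g054000, a gene of the thioredoxin superfamily, ranged from 100 to 148 CPM with *P. migulae* 8R6 and from 38 to 86 CPM in the control. For each of the 6 redox genes, the group set beside the control here is that of the comparison that chose it. These values are therefore descriptions and are not independent of the choice.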

How the data were processed

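Root RNA of 12 samples, polyA RNA per the labels, was sequenced (TruSeq stranded kits, HiSeq). After trimming by Trimmomatic, the authors used STAR for mapping on the *C. sativa* genome plus transcripts from NCBI, took counts per gene, scaled these to CPM and normalized further by DESeq; versions are not stated, and edgeR was their test. The deposited score values are these CPM as whole numbers (100% of values, tolerance 0), so rounding is inferred and they were not treated as counts. Read depth is unknown, so no counting interval is given.

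From them, log2(CPM + 0.5) was fitted with limma 3.58.1 in R 4.3.3 (trended prior, 8 residual and 2.59 prior degrees of freedom) over 12 libraries, for genes with at least 1 CPM in 3 libraries. Shares, correlations and figures used scipy 1.17.1, pandas 2.3.3 and numpy 2.4.6 under Python 3.11.15. The fit and the permutation test were tested on simulated data. The replicates are biological by the study's methods, and groups follow the sample titles.

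The genes named are the 6 peroxidase genes, 2 further listed peroxidase genes, 6 redox genes, neighbours by number and the 3 most similar genes for each member. Members and lists were chosen with earlier results of these data known. The settings varied were the pseudocount (0.1 and 1), the filter (none, or a mean of at least 5 CPM), median-of-ratios factors, a fit of the groups compared, a replicate block, no trend and leaving out single libraries. A sheet of column names and the fold changes in the supplementary tables were not used.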

Additional observations from a re-analysis of the deposited data

How the results depend on the processing

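None of the 6 peroxidase genes was called under any of the alternatives run, and none of their 282 log2 fold changes in the settings that keep every library was reversed, although that of Csa03g055440 between *P. migulae* 8R6 and *35S::acdS* went from -0.05 to 0 with a pseudocount of 1. The number of genes called over the whole matrix was small and depended on the setting. For *P. migulae* 8R6, *35S::acdS* and *rolD::acdS* roots against the control, *35S::acdS* against *rolD::acdS*, and *P. migulae* 8R6 against *35S::acdS* and against *rolD::acdS*, in this order, it was 0, 0, 2, 2, 0 and 4. It became 24, 37, 21, 39, 74 and 44 with only the groups compared in the fit, 2, 6, 4, 8, 10 and 15 without a filter, and 2, 6, 4, 8, 9 and 9 without a trend. With a pseudocount of 0.1 it was 1, 0, 2, 3, 3 and 15, with a pseudocount of 1 it was 0 in each, with a mean of at least 5 CPM 0, 0, 0, 0, 2 and 24, and with median-of-ratios factors 0, 0, 0, 0, 0 and 11. With the replicate number as a block it was 0, 0, 0, 0, 0 and 1. The numbers were not taken as pairs in the main fit. Same-numbered libraries of different groups deviated together in 10 of 18 cases over all genes (r over 0.1, range -0.14 to 0.40). Between different-numbered libraries, r ranged from -0.36 to 0.24. With the block, genes at an unadjusted limma p under 0.05 rose from 2604 to 3596 for *P. migulae* 8R6 against the control, and rose in each other comparison. Whether same-numbered libraries share a batch was not tested. Leaving out single libraries gave 0 to 4, 0 to 6, 0 to 7, 0 to 10, 0 to 22 and 0 to 51 calls, the last highest without *rolD::acdS* replicate 1. Causes were not tested.

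In the same order, the number of peroxidase genes whose libraries did not overlap was 0, 4, 4, 0, 4 and 3, and ranged over 0 to 2, 4 to 5, 4 to 6, 0 to 2, 4 to 5 and 3 to 5 when single libraries were left out, where 2 libraries separate more easily than 3. After median-of-ratios scaling 1 gene was separated between the lines. Of the fold changes, those near 0 changed sign when single libraries were left out. Against the control, *P. migulae* 8R6 gave -0.39 to 0.0086 for PRX22, -0.13 to 0.020 for PRX23, -0.21 to 0.057 for PRX34, -0.95 to 0.032 for Csa17g083270 and -1.19 to 0.14 for Csa03g055440. For *35S::acdS* against *rolD::acdS* the range was -0.30 to 0.17 for PRX22 and -0.70 to 0.24 for Csa17g083270, and for *P. migulae* 8R6 against *35S::acdS* it was -0.81 to 0.52 for Csa03g055440. The within-group correlations kept their sign and their side of the threshold with a pseudocount of 1 and after scaling. Whole-number values limit Csa03g055440, whose control mean is 4 CPM.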
